A study of Saccharomyces cerevisiae with 4 samples.

Results

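The 10 genes described here encode the enzymes that make glycerol and those that pass it, through dihydroxyacetone or glycerol 3-phosphate, back to the sugar-breakdown pathway of budding yeast, Saccharomyces cerevisiae. They were chosen by name, as GPD1, GPD2, GPP1, GPP2, GCY1, YPR1, DAK1, DAK2, GUT1 and GUT2, and are 10 of the 6176 genes of the deposited table (6212 rows before rows of the same gene were averaged). All 10 had a value on all 4 arrays, so none was lost to a filter. The study asked how yeast lacking Ptc1, a type 2C protein phosphatase, responds to rapamycin, an inhibitor of the growth-controlling kinase complex TORC1. One group was the ptc1 strain and the other the wild type, and in each the drug-treated cells (200 ng/ml rapamycin for 1 h) were set against mock-treated cells of the same strain, which received the vehicle of 90% ethanol and 10% Tween-20. All cultures grew at 28 °C in the rich, glucose-based medium YPD and were treated at an absorbance (A660) of 0.5. The sources used here do not give the genetic background or how the ptc1 strain was made.

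Glycerol is made from the glycolytic intermediate dihydroxyacetone phosphate in a pair of steps, a reduction by glycerol 3-phosphate dehydrogenase (Gpd) and a dephosphorylation by glycerol 3-phosphatase (Gpp). Yeast accumulates glycerol to withstand osmotic stress, under the control of the kinase Hog1, and also uses the pathway to dispose of excess NADH. Ptc1 is among the phosphatases known to act on Hog1. Glycerol is consumed through the kinase Gut1 and the mitochondrial dehydrogenase Gut2, genes known to be repressed by glucose, or by oxidation to dihydroxyacetone, which the kinases Dak1 and Dak2 phosphorylate.

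Each of the 4 arrays, 2 per strain, compared treated with mock-treated RNA in 2 colours. The arrays of a strain were a dye swap of the same pair of RNA samples, so each strain is 1 biological sample, the ± of a mean is the SD of its 2 arrays and carries technical spread only, and no p-value was calculated. For a strain difference, ± joins both SDs as the root of their summed squares. Values were taken as log2 of rapamycin over mock, although base and direction were not given with them. This direction is likely, since the design sets treated against mock-treated cells and GAP1, an amino acid permease gene known to be induced by rapamycin, had 5.263 and 4.284 on the ptc1 arrays and 5.537 and 5.670 on the wild-type arrays. Were it the reverse, each rise would be a fall of the same size, and each rank would count from the other end. The verbs rose and fell are used of a gene whose mean reached 1 in size (2-fold) and whose arrays shared a sign. The strains are called different where the difference of means, ptc1 minus wild type, reached 1 in size and the 4 differences between single arrays all pointed one way. The 2 ptc1 arrays had 5418 and 5301 rows with a value and the 2 wild-type arrays 5017 and 5006. Across the 4650 genes measured on all 4 arrays the ptc1 arrays correlated with each other at r = 0.869 and the wild-type arrays at r = 0.958. Across strains the 4 correlations ran from 0.898 to 0.939, so each ptc1 array was closer to the wild-type arrays than to the other ptc1 array. The median SD of these genes was 0.267 in ptc1 and 0.153 in the wild type. PTC1 itself had no value on either ptc1 array, and 0.003 and −0.525 on the wild-type arrays. Equal masses of total RNA were labelled, so a ratio describes a gene's share of the RNA and not its amount per cell.

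The 10 genes did not move as a block. In ptc1, 2 rose (GCY1 and DAK1) and 1 fell (GPP1). Over all 5221 genes measured in ptc1, 10.6% rose and 12.4% fell. In the wild type, 4 rose (GPP2, GCY1, YPR1 and DAK1) and 1 fell (DAK2), where 13.8% of all 4796 measured genes rose and 15.0% fell. The median of the 10 log2 ratios was 0.19 in ptc1 and 0.12 in the wild type, against 0.078 in ptc1 and 0.069 in the wild type over all measured genes. GPD1, GPD2, GUT1 and GUT2 passed the rule in neither strain. The strains differed in 1 of the 10 genes, DAK2, which stood higher in ptc1, where 0.989% of all genes did so. None of the 10 was lower in ptc1 by the rule, and 0.925% of all genes were.

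**Figure D1:**
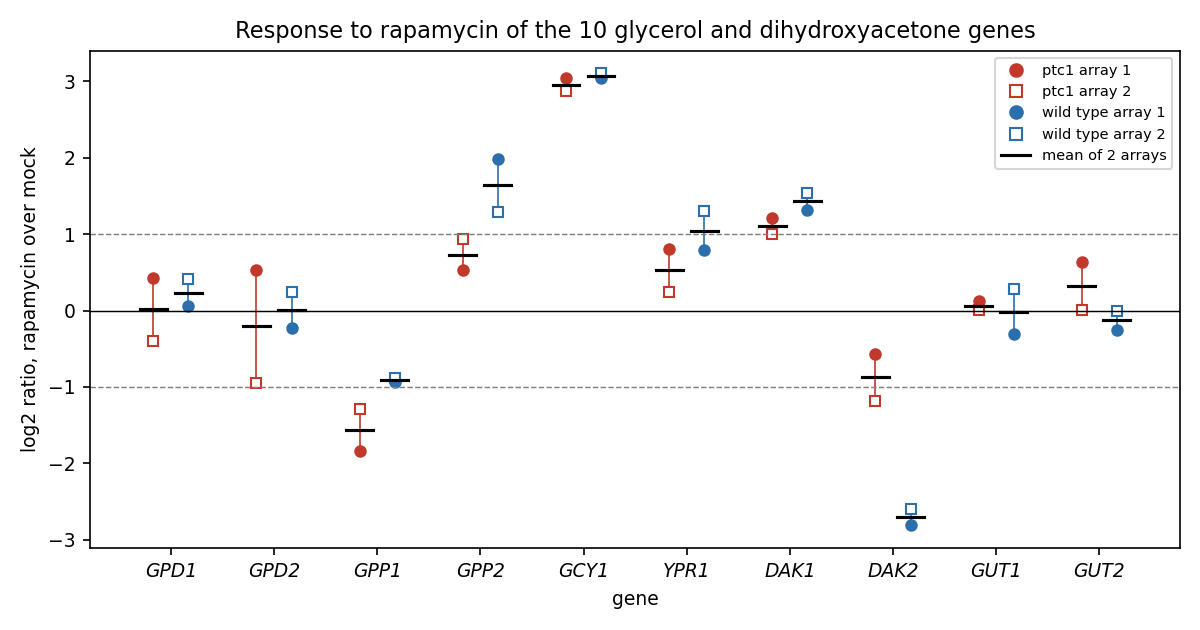
Log2 ratio, rapamycin over mock, of each of the 10 genes on each array; filled circles are array 1 and open squares array 2 of a strain (ptc1 in red, wild type in blue), black bars are means and dashed lines mark 2-fold. GCY1 stands near 3 on all 4 arrays, and DAK2 shows the widest gap between ptc1 and the wild type.

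The first step of glycerol synthesis showed no 2-fold change in either strain. GPD1 (YDL022W), the isoenzyme gene known for its induction by osmotic stress, had log2 ratios of 0.430 and −0.395 on the ptc1 arrays, against 0.061 and 0.409 on the wild-type arrays. The ptc1 arrays lay on both sides of 0 and the values of the strains overlapped. Its means were 0.018 ± 0.58 in ptc1 and 0.24 ± 0.25 in the wild type, a difference of −0.22 ± 0.63 that was smaller than its own spread.

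GPD2 (YOL059W), the isoenzyme gene linked to redox balance when oxygen is lacking, had 0.537 and −0.952 on the ptc1 arrays, against −0.222 and 0.248 on the wild-type arrays. This was the least precise value of the 10, since its ptc1 arrays differed more from each other than from either wild-type array. Its SD of 1.05 in ptc1 was larger than that of 99.2% of all genes. The mean was −0.21 in ptc1 and 0.013 ± 0.33 in the wild type, and the strain difference of −0.22 ± 1.10 leaves its direction undetermined.

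In the second step of glycerol synthesis the isoenzyme genes had ratios of opposite sign. GPP1 (YIL053W), the gene of the main glycerol 3-phosphatase of unstressed cells, had −1.841 and −1.291 on the ptc1 arrays, against −0.939 and −0.885 on the wild-type arrays. All 4 values were negative, and both ptc1 arrays lay below both wild-type arrays. GPP1 fell in ptc1, by a mean of −1.57 ± 0.39 or 2.96-fold, whereas its mean of −0.91 ± 0.04 in the wild type (1.88-fold lower) was short of the rule. The strain difference of −0.65 ± 0.39 did not pass the rule.

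GPP2 (YER062C), which encodes the osmotically induced isoenzyme, had 0.525 and 0.940 on the ptc1 arrays, against 1.986 and 1.289 on the wild-type arrays. Its values were positive throughout, with both ptc1 arrays below both wild-type arrays. GPP2 rose in the wild type by 1.64 ± 0.49 or 3.11-fold, and its ptc1 mean of 0.73 ± 0.29 (1.66-fold) did not pass the rule. The strain difference was −0.91 ± 0.57, the second largest in size of the 10 genes and 70th lowest of 4650. It was short of the rule with all arrays, but −1.11 without ptc1 array 2 and −1.25 without wild-type array 2, where GPP2 would be called lower in ptc1.

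GPP1 and GPP2 encode closely related proteins, and whether their array probes share signal was not tested. Their ratios nevertheless pointed in opposite directions on each of the 4 arrays. Within an array, GPP2 minus GPP1 was 2.37 and 2.23 in ptc1, against 2.93 and 2.17 in the wild type. The gap averaged 2.30 ± 0.10 in ptc1 and 2.55 ± 0.53 in the wild type, so it differed between strains by −0.25 ± 0.54, less than the array spread.

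**Figure D2:**
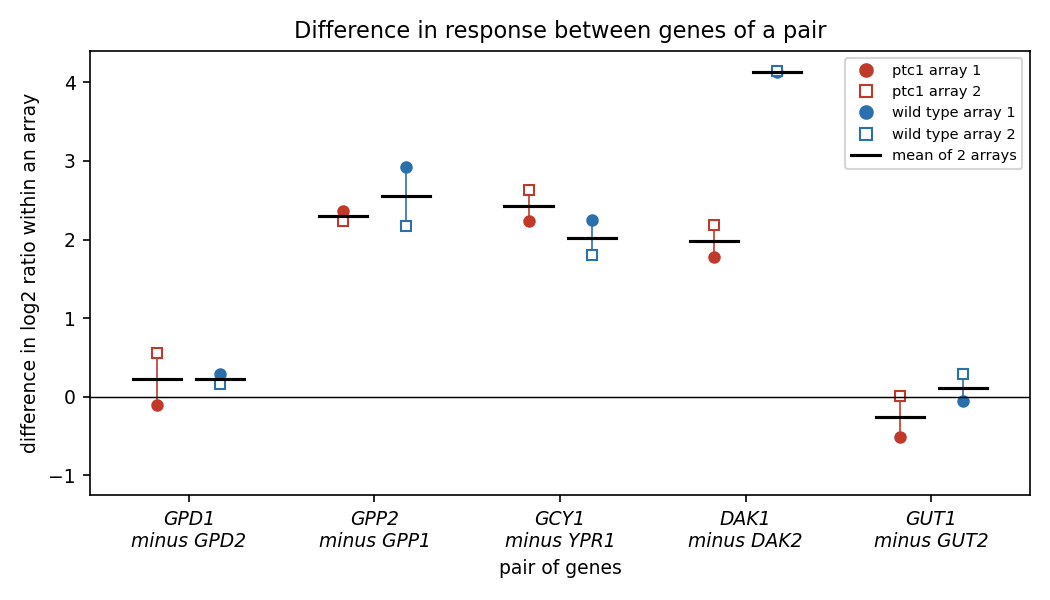
Difference in log2 ratio between the genes of a pair within each array, with symbols as for the single genes. GPP2 lies above GPP1, and GCY1 above YPR1, on all 4 arrays, and DAK1 minus DAK2 averages 1.98 in ptc1 and 4.14 in the wild type.

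GCY1 had the largest rise of the 10 genes in both strains. GCY1 (YOR120W) encodes an aldo-keto reductase known as an NADP-dependent glycerol dehydrogenase, which turns glycerol into dihydroxyacetone. It had 3.038 and 2.873 on the ptc1 arrays, against 3.042 and 3.104 on the wild-type arrays. The means were 2.96 ± 0.12 (7.76-fold) in ptc1 and 3.07 ± 0.04 (8.42-fold) in the wild type, higher than 99.4% of genes in ptc1 and 99.0% in the wild type. Both ptc1 arrays lay below both wild-type arrays, but the difference of −0.12 ± 0.12 was no larger than its spread and became 0.12 with arrays scaled to equal spread.

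YPR1 (YDR368W), whose product is a related aldo-keto reductase, had 0.807 and 0.246 on the ptc1 arrays, against 0.788 and 1.307 on the wild-type arrays. All values were positive and those of the strains overlapped. Its mean was 0.53 ± 0.40 in ptc1 and 1.05 ± 0.37 in the wild type. The wild-type rise was only just past the rule and did not hold with each array centred on its median, which gave 0.98, or without wild-type array 2, which gave 0.79. GCY1 minus YPR1 within an array was 2.23 and 2.63 in ptc1, against 2.25 and 1.80 in the wild type, so the larger response was that of GCY1 on all 4 arrays.

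The dihydroxyacetone kinase genes had ratios of opposite sign on all 4 arrays, and DAK2 carried the largest strain difference of the 10 genes. DAK1 (YML070W), which encodes the kinase linked to detoxification of dihydroxyacetone, had 1.215 and 1.000 on the ptc1 arrays, against 1.318 and 1.543 on the wild-type arrays. It rose in ptc1 by 1.11 ± 0.15 (2.15-fold), with array 2 exactly at the 2-fold limit, and in the wild type by 1.43 ± 0.16 (2.70-fold). Both ptc1 arrays lay below both wild-type arrays, with a difference of −0.32 ± 0.22.

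DAK2 (YFL053W) had −0.566 and −1.182 on the ptc1 arrays, against −2.809 and −2.603 on the wild-type arrays. All 4 values were negative, and the ptc1 arrays lay well above the wild-type arrays, without overlap. DAK2 fell in the wild type by −2.71 ± 0.15, or 6.53-fold. In ptc1 its mean of −0.87 ± 0.44 (1.83-fold lower) was short of the rule, although the value without ptc1 array 1 was −1.18, past it. The strain difference of 1.83 ± 0.46 amounts to 3.56-fold with 1.42 and 2.24 as the lowest and highest of the 4 differences between single arrays, and it was the third highest of 4650 genes. The mock-treated cells were the denominator in each strain, so a strain difference in the treated cells and one in the mock-treated cells cannot be told apart.

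DAK1 minus DAK2 within an array was 1.78 and 2.18 in ptc1, against 4.13 and 4.15 in the wild type. The mean gap was 1.98 ± 0.28 in ptc1 and 4.14 ± 0.01 in the wild type, so it was smaller in ptc1 by −2.16 ± 0.28. It was the gap that differed most between the strains among the 5 pairs of genes compared. This largely restates the strain difference of DAK2 (1.83), that of DAK1 being −0.32, and is not a separate result.

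**Figure D3:**
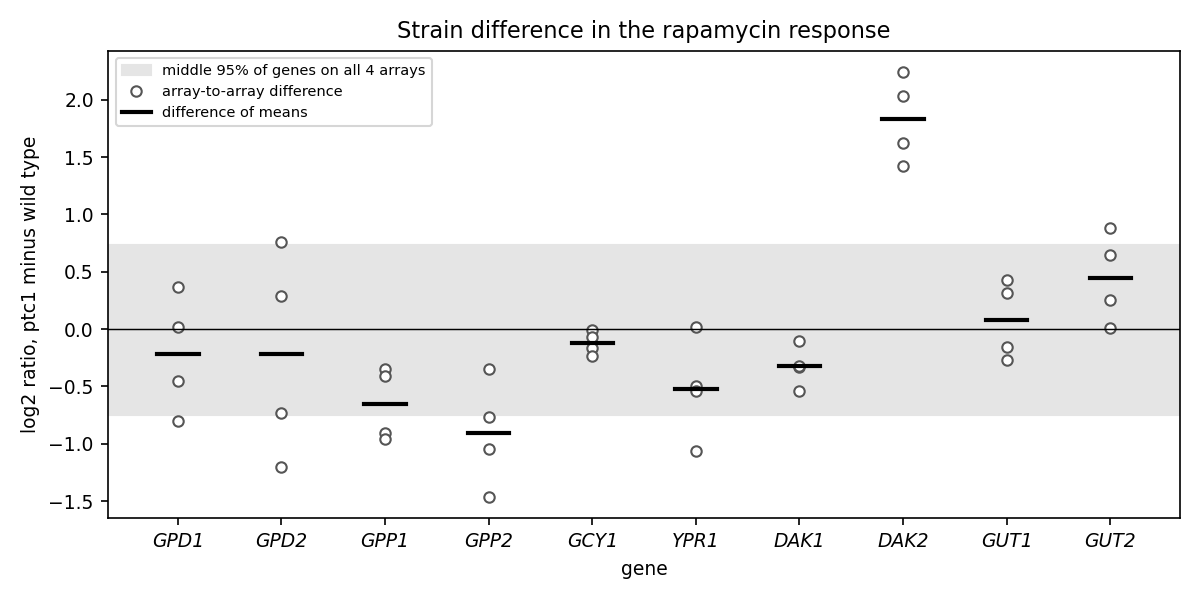
Difference in log2 ratio, ptc1 minus wild type, for each gene; open circles are the 4 array-to-array differences, black bars the difference of means, and the grey band holds the middle 95% of the 4650 genes measured on all 4 arrays (−0.75 to 0.74). The means of DAK2 and GPP2 lie outside the band and those of the other 8 genes inside it.

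The genes of glycerol use through glycerol 3-phosphate stayed near 0. GUT1 (YHL032C), the glycerol kinase gene, had 0.124 and 0.008 on the ptc1 arrays, against −0.305 and 0.276 on the wild-type arrays, and the values overlapped. Its means were 0.066 ± 0.08 in ptc1 and −0.0145 ± 0.41 in the wild type. GUT2 (YIL155C), the gene of the mitochondrial glycerol 3-phosphate dehydrogenase, had 0.636 and 0.005 on the ptc1 arrays, against −0.248 and −0.008 on the wild-type arrays. Both ptc1 values were positive and both wild-type values negative, but array 2 of each strain was close to 0, and the difference of 0.45 ± 0.48 was smaller than its spread.

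Setting the strains side by side over all 10 genes, 7 had a lower mean in ptc1 than in the wild type, with a median difference of −0.22, against −0.0035 over all genes. This median rested on single arrays, since it was 0.052 without ptc1 array 2. Both ptc1 arrays lay below both wild-type arrays in 4 genes (GPP1, GPP2, GCY1 and DAK1), which holds for 16.5% of all genes at any size of difference, and above them in 2 (DAK2 and GUT2), which holds for 18.2%. The 5 genes past the rule in the wild type (GPP2, GCY1, YPR1, DAK1 and DAK2) had means closer to 0 in ptc1, as did 85.7% of the 1340 genes past the rule in the wild type and measured on all arrays. With arrays scaled to equal spread GCY1 turned, at 3.08 in ptc1 and 2.96 in the wild type, leaving 4 of the 5, and the share over all such genes was 74.1%. Choosing genes by a large wild-type mean itself favours a mean closer to 0 in ptc1, for the members and for all genes alike. The share for genes chosen by a large ptc1 mean was not counted. GPP1 had the larger change in ptc1.

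**Figure D4:**
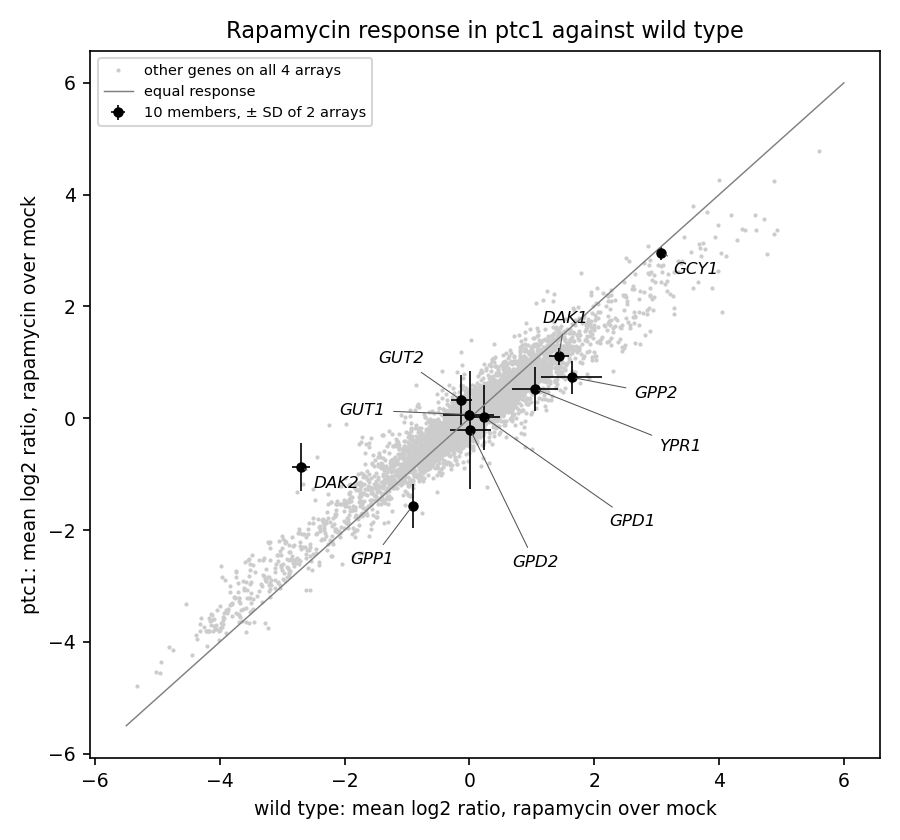
Mean log2 ratio in ptc1 against that in the wild type for the 10 genes (black, error bars the SD of 2 arrays) and all other genes measured on all 4 arrays (grey), with the line of equal response. DAK2 lies far above the line, GPP1 and GPP2 lie below it, and GCY1 is close to it at a high value in both strains.

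DAK2 is the 13th protein-coding gene from the left end of chromosome VI in the R64 reference annotation. Only DAK2, the member with the largest strain difference, had its neighbours examined. The 3 genes on either side of it were examined for whether the strain difference extended along the chromosome. Of these 6 neighbours 4 were measured on all 4 arrays. All 4 had a higher mean in ptc1, by 0.62 (THI5), 0.23 (AGP3), 0.94 (AQY3) and 0.72 (ALR2). Over all genes the median difference was −0.0035, so a higher mean in ptc1 was common, and the share of genes with one was not counted. None of the differences of the 4 neighbours passed the rule, although that of AQY3 would without ptc1 array 1. In 3 of the 4 (THI5, AQY3 and ALR2) both ptc1 arrays lay above both wild-type arrays, where 18.2% of all genes did so and 22.4% of genes within 20 of a chromosome end, while the arrays of AGP3 overlapped. AQY3 (YFL054C), the adjacent gene, encodes a putative channel for water and glycerol. It had 1.073 and 1.593 on the ptc1 arrays, against 0.426 and 0.362 on the wild-type arrays, so it rose in ptc1 (1.33 ± 0.37) and did not pass the rule in the wild type (0.39 ± 0.05). The other neighbours had missing values. YFL051C, with 1 array per strain, lay the other way (−0.060 in ptc1 and 0.585 in the wild type), and ZNF1 had −0.223 on 1 ptc1 array, against −0.756 and −0.715 in the wild type. None of the 5 neighbours measured on both wild-type arrays fell in the wild type. THI5 has near-identical copies elsewhere in the genome, so its value is uncertain.

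**Figure D5:**
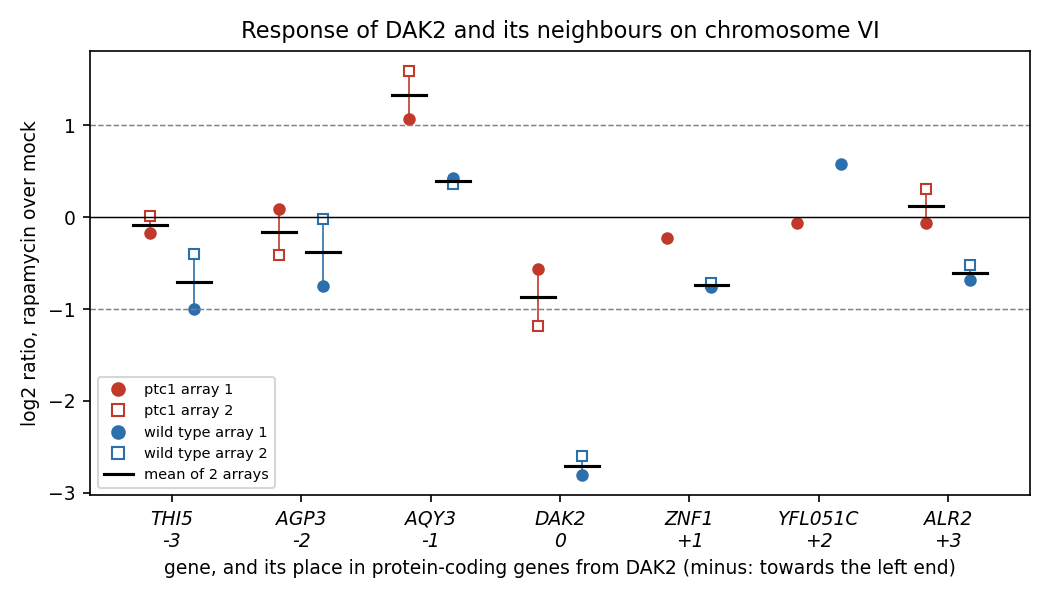
Log2 ratio, rapamycin over mock, of DAK2 and the 3 protein-coding genes on either side, with symbols as for the single genes; a missing symbol is a missing value. In the 4 neighbours measured on all arrays the ptc1 mean is above the wild-type mean, and DAK2 alone falls past 2-fold in the wild type.

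The 43 other genes of the pathway were grouped in 5 lists, which were written with earlier results of these data known. Setting their counts against all genes is therefore not an independent comparison. Over these lists 15 of 38 measured genes rose and 2 fell in ptc1 (median 0.58), and 9 of 34 rose and 2 fell in the wild type (median 0.73). Over all measured genes 10.6% rose and 12.4% fell in ptc1, and 13.8% rose and 15.0% fell in the wild type, shares against which the counts of each list below are also to be read. None of the 32 measured on all 4 arrays differed between strains by the rule, which 0.989% of all genes passed upwards and 0.925% downwards. The ptc1 calls rested more on single arrays than the wild-type ones, since in 9 of the 17 genes called in ptc1 (GLO2, GLO4, GPT2, SLC1, AYR1, GDE1, PGC1, CAT8 and RSF1) and in 1 of the 11 called in the wild type (RSF1) 1 of the arrays was short of 2-fold.

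The list of related aldo-keto reductases and methylglyoxal breakdown, which handles reactive carbonyl compounds, had the highest median of the 5 lists in both strains. In ptc1, 5 of 8 rose and 1 fell (all genes: 10.6% and 12.4%), with a median of 1.15. In the wild type 4 of 8 rose and 1 fell (all genes: 13.8% and 15.0%), with a median of 1.19. The all-gene medians were 0.078 in ptc1 and 0.069 in the wild type. The reductase genes ARA1 (1.35 in ptc1 and 2.09 in the wild type), GRE3 (1.29 in ptc1 and 1.498 in the wild type) and YJR096W (1.96 in ptc1 and 2.25 in the wild type) rose in both strains. GLO1, the glyoxalase I gene, also rose in both, by 1.10 in ptc1 and 1.41 in the wild type. GLO2, the gene of the cytosolic glyoxalase II, rose in ptc1 (1.21) and was just short of the rule in the wild type (0.97), while GLO4, that of the mitochondrial form, fell in both strains (−1.37 ± 0.81 in ptc1 and −1.41 ± 0.18 in the wild type). In 5 of the 8 genes (ARA1, GRE3, YDL124W, YJR096W and GLO1) both ptc1 arrays lay below both wild-type arrays, where 16.5% of all genes did so. The list median difference was −0.25, against −0.0035 over all genes. These 5 genes had positive ratios on every array. Of all genes past the rule in the wild type, 85.7% had means closer to 0 in ptc1, or 74.1% with arrays scaled to equal spread. That share pools genes that rose with genes that fell, and choosing by a large wild-type mean itself favours it. It does not cover YDL124W, whose wild-type mean of 0.91 was short of the rule. Whether lower values in ptc1 were particular to this list was not tested.

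Of the 7 genes of glycerol transport, 5 were measured on both ptc1 arrays and 6 on both wild-type arrays. ASK10, which encodes a regulator of the glycerol channel Fps1, rose in ptc1 (1.17 ± 0.03) and in the wild type (1.23 ± 0.11), and AQY3 rose in ptc1. FPS1 itself stood at −0.064 ± 0.37 in ptc1 and 0.12 ± 0.12 in the wild type. RGC1, of the same list, was short of the rule in both strains, at 0.36 ± 0.01 in ptc1 and 0.96 ± 0.43 in the wild type. Both its ptc1 arrays lay below both wild-type arrays, as in 16.5% of all genes. In the list of triose phosphate and NADH supply the external NADH dehydrogenase genes had ratios of opposite sign. NDE2 rose in ptc1 (1.93 ± 0.50) and in the wild type (1.68 ± 0.27), whereas NDE1 was at −0.49 ± 0.15 in ptc1 and fell in the wild type (−1.17 ± 0.17). NDI1, the gene of the internal enzyme, rose in ptc1 (1.20 ± 0.13) and stood at 0.88 ± 0.23 in the wild type.

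Of the 6 genes that lead glycerol 3-phosphate into lipids or release it from them, 4 rose and 1 fell in ptc1 (all genes: 10.6% and 12.4%), and 2 of 5 measured rose in the wild type (all genes: 13.8%). The reductase gene AYR1 (1.21 in ptc1 and 1.40 in the wild type) and the phospholipase gene PGC1 (1.05 in ptc1 and 1.20 in the wild type) rose in both strains. The acyltransferase gene GPT2 rose in ptc1 (1.07) and stood at 0.93 in the wild type, and GDE1, whose enzyme frees glycerol 3-phosphate from glycerophosphocholine, rose in ptc1 (1.09) and lacked a value on 1 wild-type array. SLC1, a further acyltransferase gene, fell in ptc1 (−1.13 ± 0.52) and was at −0.93 ± 0.18 in the wild type. Of the 16 regulators, 13 were measured on both ptc1 arrays and 9 on both wild-type arrays. RSF1, a gene of growth on glycerol, rose in ptc1 (1.06 ± 0.53) and in the wild type (1.00 ± 0.22). CAT8, the gene of an activator of gluconeogenic genes, rose in ptc1 (1.01 ± 0.06) and lacked a value on 1 wild-type array. The wild-type call of RSF1 was lost with centred arrays (0.94), with arrays scaled to equal spread (0.97) and without wild-type array 1 (0.845), and the ptc1 call of CAT8 with centred arrays (0.97) and without ptc1 array 2 (0.969). HOG1 had a value on the ptc1 arrays only, 0.403 and −0.217.

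The genes most like each member were found by the Euclidean distance of the log2 ratios over the 4 arrays, among the 4649 other genes measured on all of them. GCY1 was closest to AIM17 (distance 0.115), CUP2 and PDE1, and DAK1 to EHT1 (0.130), COQ11 and PEX11. GPP2 was closest to PIP2 (0.219), then DDR48 and YGL140C, and GPP1 to SEC53 (0.508), ESF2 and GLY1. YPR1 was closest to YML045W (0.212), STP3 and YGL039W. The nearest gene to DAK2 was MMP1, the S-methylmethionine permease gene, at 0.464, then YNL034W (0.734) and LEE1 (0.965). All were lower in the wild type than in ptc1, which follows largely from their choice by closeness to DAK2. Of the genes past the rule in neither strain, GPD1 was closest to UBC7, ALE1 and SAC6, and GUT1 to MST28, MGR1 and PUF3. GUT2 was closest to RDR1, CDC23 and ANP1. GPD2 was closest to GPI8, YPR063C and KTR1, which shared its disagreement in sign between the ptc1 arrays.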

How the data were processed

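Log2 ratios were used as the authors deposited them, 1 value for each open reading frame and array. Per the labels, spots under 120 µm in diameter or under 150 intensity units were left out by the authors, ratios were normalised by the ratio of medians, and 8 µg of total RNA was labelled. The sources used here give no scanner, background correction or log base. Another base would change every fold and the 2-fold rule, not the signs. The dyes named in the titles and in the dye fields of the ptc1 arrays are opposite, but each strain mean holds both orientations. The median of all genes per array ran from −0.004 to 0.131, so centring shifts wild-type array 1 by 0.131. Rows were named by the R64 annotation (5662 by locus tag, 52 by synonym, 498 unmatched), and averaging repeated rows removed 36. All 10 members matched, with 1 row each. Named genes were the members, other pathway genes past the rule, the 3 most alike genes of each member and the 3 neighbours on either side of DAK2. FPS1, HOG1, RGC1 and YPK2 were added after their values were seen. Members and lists were chosen with earlier results of these data known. Promoter motifs were not analysed here. The number of arrays limits the precision. The rule was tried on simulated data with planted strain differences well past its limit and array noise only, which does not test differences near the rule. Python 3.11.15, pandas 2.3.3 and numpy 2.4.6 were used. Alternatives were centring, scaling, leaving out each array, other row handling, a 1.5-fold rule and no sign condition, applied to the pathway lists after seeing the data.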

Additional observations from a re-analysis of the deposited data

Results flagged for a closer look

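GUT2 had positive log2 ratios on both ptc1 arrays and negative ones on both wild-type arrays, a difference of 0.45 that was not tested, with array 2 of each strain within 0.01 of 0. Pathway list genes short of the rule were left out of this search. Among them the regulator gene YPK2 had the same signs, with 0.521 and 0.686 in ptc1, against −0.289 and −0.359 in the wild type. Its difference of 0.93 ± 0.13 was short of the rule and was not tested.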

How the results depend on the processing

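With 2 arrays of 1 RNA pair per strain, calls near the rule depend on single arrays. Without 1 array, 1 or 2 members fell in ptc1 (GPP1, with DAK2 added without ptc1 array 1), and 0 or 1 were lower in ptc1 (GPP2, without ptc1 array 2 or wild-type array 2). A 1.5-fold rule gave 2 members that fell in ptc1, 2 that fell in the wild type (both times GPP1 and DAK2) and 2 lower in ptc1 (GPP1 and GPP2). Of 84 recomputed counts and medians of the members, 78 stayed within 1.5 times or within the array spread, but some of them could not change. The members have no repeated row and no missing value, so other row handling left them as they were. Leaving out an array of a strain likewise left the results of the other strain. The array spread also let a change of sign pass, since the median strain difference was −0.22 with all arrays and 0.052 without ptc1 array 2. The higher ratio of DAK2 in ptc1 passed the rule under every alternative run. The members that rose in the wild type were 3 without wild-type array 2 and with centred arrays, YPR1 being short of the rule. Of 60 recomputed counts of the pathway lists 50 stayed within 1.5 times, and here too the rises and falls of the strain that kept its arrays could not change. Leaving out 1 array, 0 to 5 list genes fell in ptc1, 9 to 14 rose in the wild type (14 without wild-type array 2), and up to 2 were higher (AQY3 and YPK2) and up to 2 lower (FBA1 and TPI1) in ptc1, these without ptc1 array 1 and 0 otherwise. The 1.5-fold rule gave 5 list genes that fell in ptc1, 19 that rose and 4 that fell in the wild type, 3 higher and 3 lower in ptc1. No paired analysis was made. Matching arrays across strains by dye would leave each difference of means as it is but could change its ±, which joins unpaired SDs and so includes any dye effect. The titles and dye fields disagree on how the ptc1 arrays would match.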

Other observations

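DAK2, GUT1 and GUT2 lie within 20 protein-coding genes of a chromosome end, and this grouping was chosen after seeing the data. Of 420 genes within that distance measured on all 4 arrays, 3.57% had a higher ratio in ptc1 by the rule and 1.19% a lower one, against 0.748% and 0.848% of 4009 genes farther from an end. The median strain difference was −0.0046 near the ends and −0.002 elsewhere, so the typical gene near an end stood where other genes did, and no test was made of the difference in shares.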
